A study of Mus musculus with 24 samples.

Results

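A set of 10 genes that encode chromatin regulators and are recurrently mutated in human bladder cancer were followed across the BURP tumor lines, mouse bladder tumors induced by the carcinogen BBN. They are Kmt2a, Kmt2c, Kmt2d, Arid1a, Smarca4, Ep300, Crebbp, Stag2, Ezh2 and Asxl2. The list was set by gene name and not by a cutoff on these values, but with earlier results of these data known. It holds 10 of the 53465 genes in the deposited table. All 10 passed the filter on low counts in every comparison, and their counts per tumor ranged from 107 for Ezh2 to 15562 for Kmt2d.

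RNA was sequenced from 24 tumors, 3 from each of 8 lines. Every line began as a bladder tumor of a C57BL/6NTac mouse that drank 0.1% BBN from 8 weeks of age for up to 36 weeks, and was then passed subcutaneously through immune-competent C57BL/6NTac hosts of the same sex. Of the 6 basal/squamous (Ba/Sq) lines, 3 are from males, namely BURP-12BaSq, BURP-17BaSq and also BURP-18BaSq, and the female lines are BURP-21BaSq, BURP-24BaSq and also BURP-25BaSq. BURP-16SR, classed as stroma-rich, and BURP-19NE, classed as neuroendocrine-like, are male. No group of untreated bladder was analysed here, and all grafts of a line go back to the same primary tumor. Between single lines, and in tests over lines, p-values measure the spread between grafts and not between animals in which a cancer arose. Where Ba/Sq lines are pooled, the spread among these lines also enters the main fits, but each graft is still counted as a unit.

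These genes act on the packaging of DNA. Kmt2a, Kmt2c and Kmt2d encode methyltransferases of histone H3 lysine 4, which mark promoters and enhancers. Ep300 and Crebbp encode paired histone acetyltransferases of enhancers. Arid1a and Smarca4 encode a DNA-binding subunit and an ATPase of the SWI/SNF remodeling complex, which shifts nucleosomes. Ezh2 is the catalytic subunit of Polycomb repressive complex 2 (PRC2), Asxl2 belongs to a complex that removes ubiquitin from histone H2A, and Stag2 is a subunit of cohesin, the ring that holds DNA loops and sister chromatids. In bladder cancer most of them are known as targets of inactivating mutations, and RNA levels do not report whether a gene is mutated.

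Levels are given as CPM, the share of a tumor's counts scaled to 1e6, after TMM normalization, and as CPM per kilobase (kb) of the longest annotated transcript where different genes are compared. Total counts per tumor lay between 9295708 and 25370320. In tumor C102-M30 of BURP-25BaSq 1 ribosomal RNA gene took 61.9% of counts. In all other tumors the largest single share fell to Gm26917, from 5.62% in C80-M3 of BURP-19NE to 18.1% in C149-M3 of BURP-18BaSq. Its share was 17.2% in C148-M3 of BURP-18BaSq and 15.8% in C73-M10 of BURP-16SR. The TMM factors were 0.260 in C102-M30, 0.859 in C149-M3, 0.728 in C148-M3 and 0.841 in C73-M10. Over protein-coding genes, C102-M1, labelled BURP-25BaSq, was most similar to a BURP-21BaSq tumor (Pearson's r of log2 CPM 0.973), with r of at most 0.890 to its own line. BURP-18BaSq tumor P4 was the other library most similar to a tumor of another line, by a small margin (0.918 against 0.913). In Asxl2, C102-M1 had 173 CPM against 85.0 and 86.8 in the other tumors of its line and 160 to 209 in BURP-21BaSq. In Smarca4 it had 276 CPM against 193 and 160, with 242 to 299 in BURP-21BaSq. Of the cell type markers, the summed level of 12 epithelial genes was 9485 to 18780 CPM in the Ba/Sq tumors, 212 to 489 in BURP-16SR and 144 to 215 in BURP-19NE. Of the neuroendocrine markers in BURP-19NE, Ncam1 (245 to 359 CPM) was higher than in the Ba/Sq lines, while Neurod1 and Insm1 had no counts and Chga, Chgb and Syp stayed at or below 0.545 CPM.

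All 10 regulators were detected in every tumor, and they varied less between lines than most genes. Per kb of transcript, the median level over the 24 tumors ran from 10.3 CPM for Asxl2 to 30.4 CPM for Smarca4. The mean of the highest line divided by the mean of the lowest was between 1.63-fold for Crebbp and 2.48-fold for Kmt2c, with a median of 2.01-fold over the 10. Over the 15275 protein-coding genes that were tested, the median was 3.26-fold, and 63.7% exceeded the value of Kmt2c. These genes were not matched to the regulators in level, and genes without counts in a line were taken as above Kmt2c. The levels of each regulator in the single tumors are plotted by line.

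**Figure D1:**
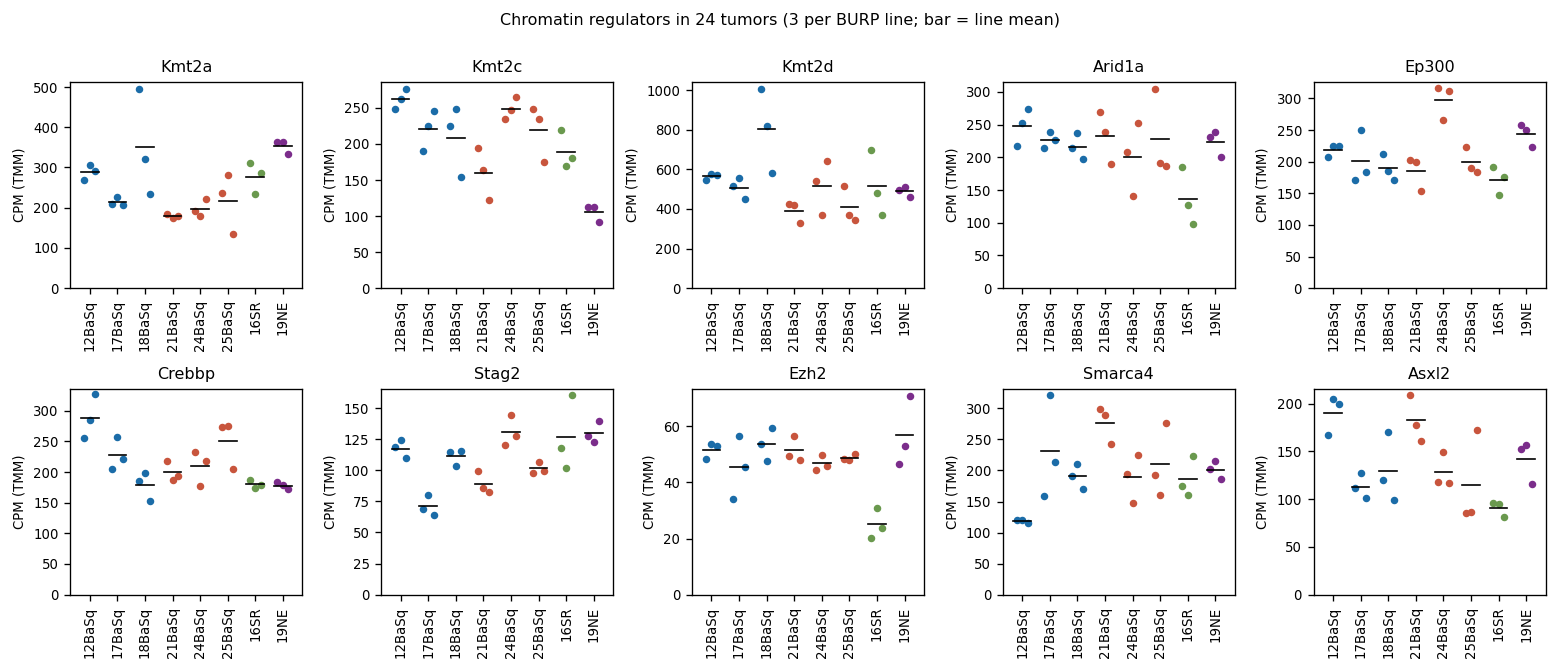
Level of each regulator (CPM after TMM normalization, axis from 0) in the 3 tumors of each BURP line, with points for tumors and bars for line means. Male Ba/Sq lines are blue, female Ba/Sq lines red, BURP-16SR green and BURP-19NE purple. Kmt2c is lowest in BURP-19NE and Ezh2 in BURP-16SR, each without overlap with the Ba/Sq tumors.

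Whether a regulator varied between lines beyond the spread of tumors within a line was tested with edgeR's quasi-likelihood F test, with Benjamini-Hochberg adjustment over all genes tested and a call at an adjusted p under 0.05. Over the 8 lines 9 of the 10 were called, where the background was 76.7% of all genes tested. Kmt2c had the lowest adjusted p of the 10 at 0.000327, and Arid1a was not called at 0.0840. Over the 6 Ba/Sq lines alone, Kmt2a, Kmt2d, Ep300, Crebbp, Stag2 and Smarca4 were called, 6 of the 10 against a background of 50.5%. Stag2 had the lowest adjusted p there, 0.00119. Ezh2 (0.655) and Arid1a (0.848) had the highest. Without C102-M1, Asxl2 was also called among the Ba/Sq lines, and without C102-M30 the same 6 were called.

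To ask how the regulators differ by subtype, BURP-19NE and BURP-16SR were set against the 18 Ba/Sq tumors and against each other. BURP-24BaSq was also compared with BURP-16SR, the pair of lines that the study used in its cisplatin experiment. These comparisons share samples, so each is given with its own values. In BURP-19NE against the Ba/Sq lines 1 of 10 regulators was called, Kmt2c, which was lower. Over all genes 33.5% were called, 15.5% higher and 17.9% lower, and 24.3% were called with a fold above 2. The median log2 fold change of the 10 was 0.01, beside -0.14 over all genes tested. In BURP-16SR against the Ba/Sq lines Ezh2 and Arid1a were called, both lower, against a background of 25.1%, with 13.8% higher, 11.3% lower and 19.2% called with a fold above 2. The median over the 10 was -0.19, beside -0.03 over all genes.

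Between the other lines, BURP-16SR differed from BURP-19NE in 3 regulators, with Kmt2c higher and Ezh2 and Asxl2 lower. The background was 34.3%, of which 19.2% of all genes were higher and 15.1% lower, and 23.6% were called with a fold above 2. BURP-24BaSq differed from BURP-16SR in 3 as well, with Ep300 and Ezh2 higher and Kmt2a lower, against 38.0% of all genes, 17.6% higher and 20.4% lower. The share of regulators called was thus near or below the background in all 4 comparisons. In a bulk tumor, fewer cells of a type and less RNA per cell cannot be told apart.

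**Figure D2:**
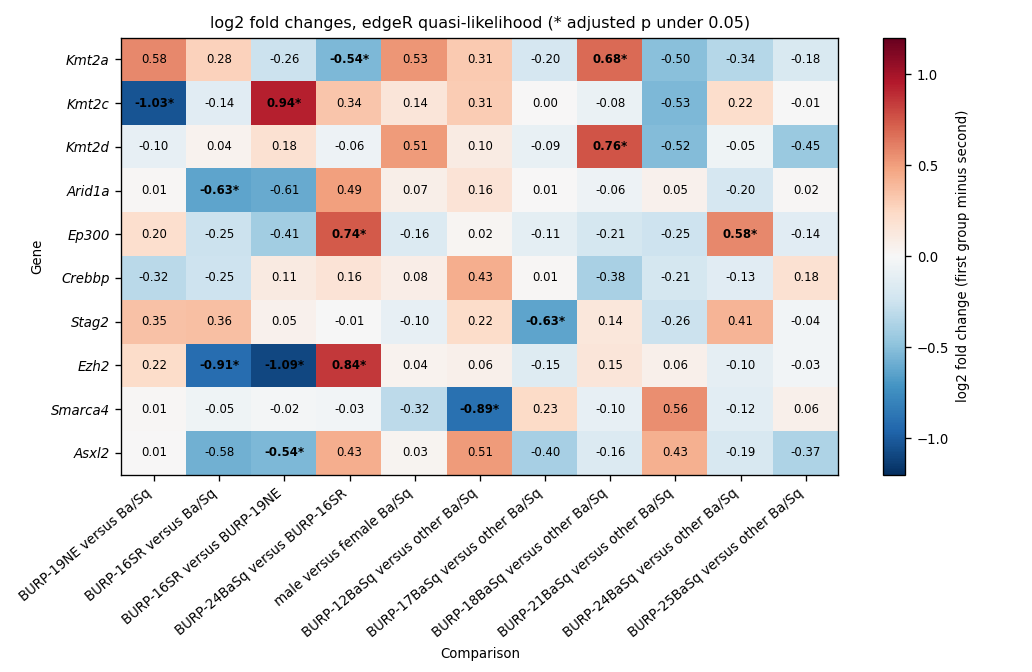
The log2 fold change (first group minus second, edgeR quasi-likelihood fit) of each regulator in the 11 comparisons between groups of tumors, in color and as printed values. An asterisk marks an adjusted p under 0.05, which 14 of the 110 values have, and Kmt2c in BURP-19NE and Ezh2 in BURP-16SR are the calls with the lowest adjusted p.

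Among the H3K4 methyltransferases, Kmt2c (ENSMUSG00000038056.15, chromosome 5 from 25271798 to 25498783, minus strand, GRCm38) held the largest difference of a subtype. Its 59-exon transcript encodes the enzyme of one of the COMPASS-like complexes of enhancers. The 3 BURP-19NE tumors had 113, 112 and 91.9 CPM, and the 18 Ba/Sq tumors had from 122 to 276 CPM with a median of 234. All 3 BURP-19NE tumors lay below every Ba/Sq tumor, a gap that 18% of all genes tested had in one direction or the other. The mean was 106 ± 12.1 CPM (SD, n = 3) against 220 ± 43.4 CPM (SD, n = 18). On the log2 scale the fold change was -1.03 ± 0.20 (SE, edgeR adjusted p = 0.000442), and the call held in each alternative tried, between -1.12 and -0.98.

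Kmt2c in the BURP-16SR tumors was 219, 169 and 180 CPM, above all 3 BURP-19NE tumors. BURP-16SR exceeded BURP-19NE by a log2 fold change of 0.94 ± 0.16 (SE, edgeR adjusted p = 0.00718), and this call held in every alternative. With 3 tumors on each side 51.7% of all genes did not overlap between these lines. Within the Ba/Sq lines, Kmt2c was lowest in BURP-21BaSq at 195, 164 and 122 CPM, which overlapped the other lines, and the log2 fold change of -0.53 ± 0.18 was not called by edgeR (adjusted p = 0.28). DESeq2 gave it an adjusted p of 0.0450. RSEM had divided reads of Kmt2c with other genes in 24 of the 24 tumors, as values that are not whole show, and the reads so divided could not be counted.

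The 10 protein-coding genes tested nearest to Kmt2c, 5 on each side and chosen after its values were seen, were lower in BURP-19NE in 9 cases, and 2 of them were called. These were Prkag2, which encodes a subunit of the AMP-activated kinase, at -0.81 and Nub1 at -0.63 on the log2 scale. Galnt11, the nearest of all, had a log2 fold change of 0.02. The median of the 10 neighbors was -0.62, while that of the 920 genes tested on chromosome 5 was -0.09 and that of all protein-coding genes -0.14.

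Kmt2a (ENSMUSG00000002028.13, chromosome 9 from 44803355 to 44881296, minus strand), the MLL1 enzyme known from leukemia, was high in BURP-19NE, at 364, 363 and 334 CPM. The Ba/Sq tumors ranged from 135 to 494 CPM with a median of 224, so the groups overlapped. The log2 fold change of 0.58 ± 0.24 was not called by edgeR (adjusted p = 0.0694). It was called when tumor C148-M3 of BURP-18BaSq was left out, at 0.64 with an adjusted p of 0.0127, and when all 24 tumors entered 1 fit, at 0.59 with 0.00727. That joint fit, here and below, takes only the spread within lines as error, and not the spread among the Ba/Sq lines. Between BURP-24BaSq (192, 180 and 222 CPM) and BURP-16SR (312, 234 and 286 CPM) Kmt2a did not overlap. That log2 difference of -0.54 ± 0.18 was barely past the threshold (edgeR adjusted p = 0.0497) and the call was lost in 10 of 12 alternatives.

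Kmt2a and Kmt2d (ENSMUSG00000048154.16, chromosome 15 from 98831669 to 98871204, minus strand) were both higher in BURP-18BaSq than in the other Ba/Sq lines. Kmt2d, the enzyme of the second enhancer complex, reached 1005, 819 and 580 CPM there, beside 328 to 643 CPM in the 15 other tumors. Kmt2a reached 494, 320 and 235 CPM beside 135 to 306 CPM. In both genes tumor C148-M3 was the highest and the lowest BURP-18BaSq tumor fell inside the range of the other lines. The log2 fold changes were 0.76 ± 0.19 for Kmt2d (edgeR adjusted p = 0.0129) and 0.68 ± 0.21 for Kmt2a (edgeR adjusted p = 0.0372). Both calls were lost without C148-M3, when the log2 fold changes were 0.55 for Kmt2d (adjusted p = 0.196) and 0.34 for Kmt2a (adjusted p = 0.471). Both were also lost without C149-M3, at 0.73 (adjusted p = 0.0657) and 0.73 (adjusted p = 0.0896). The background in BURP-18BaSq was 15.9% of genes tested. The paralog Kmt2b had 226, 218 and 112 CPM in BURP-18BaSq, a log2 fold change of 0.60 with an adjusted p of 0.100.

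The sexes were compared over the 9 male and 9 female Ba/Sq tumors, because bladder cancer is more frequent in men. None of the 10 regulators was called by edgeR, where 5.46% of all genes were, and 2 of them had an unadjusted p under 0.05. These were Kmt2a, at 284 ± 89.1 CPM in males and 198 ± 42.1 CPM in females (SD, n = 9 each), and Kmt2d, at 624 ± 175 against 440 ± 105 CPM. Their log2 differences, male minus female, were 0.53 ± 0.18 (edgeR adjusted p = 0.0817) and 0.51 ± 0.17 (edgeR adjusted p = 0.0837). DESeq2 called both, at adjusted p of 0.0406 and 0.0377, with grafts as the unit. With counts summed per line, 3 lines of each sex, the adjusted p were 0.775 for Kmt2a and 0.810 for Kmt2d. Kmt2b was called by edgeR, at 162 ± 45.3 against 105 ± 21.6 CPM, with a log2 difference of 0.62 ± 0.17 (adjusted p = 0.0352). Its call was lost in 18 of 31 alternatives, 10 of them fits without 1 tumor. It was also lost when counts were summed per line (adjusted p = 0.767), the fit in which a line and not a graft is the unit. Kdm6a, the X-linked H3K27 demethylase partner of Kmt2c and Kmt2d that is also mutated in bladder cancer, was 63.0 ± 14.1 CPM in males and 81.3 ± 44.6 CPM in females, and was not called (edgeR adjusted p = 0.491).

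Kdm6a varied widely among the female lines. It was 39.6, 35.6 and 33.0 CPM in BURP-21BaSq and 104, 127 and 99.2 CPM in BURP-24BaSq. The library labelled C102-M1 had 39.9 CPM, where its line mates had 104 CPM or more. BURP-24BaSq exceeded BURP-16SR in Kdm6a by 0.92 on the log2 scale (edgeR adjusted p = 0.0149), a call lost without C81-M30 of BURP-24BaSq (adjusted p = 0.0534). BURP-16SR was below BURP-19NE, at -0.66 (edgeR adjusted p = 0.0429), a call lost without any 1 of 4 single tumors (adjusted p from 0.0811 to 0.128). Of the 15 partners and paralogs of the KMT2 enzymes, 2 were higher and none lower in BURP-19NE against the Ba/Sq lines. In BURP-16SR edgeR called none of them, and 4 had an unadjusted p under 0.05. The background was 33.5% of all genes called in BURP-19NE and 25.1% in BURP-16SR.

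Arid1a and Smarca4 stand for the SWI/SNF complex. Arid1a (ENSMUSG00000007880.16, chromosome 4 from 133679008 to 133756769, minus strand) was lower in BURP-16SR, at 185, 127 and 98.1 CPM, than in the Ba/Sq tumors, which ranged from 142 to 304 CPM with a median of 222. The highest BURP-16SR tumor lay inside the Ba/Sq range. This was a log2 fold change of -0.63 ± 0.19 (edgeR adjusted p = 0.0203). The call was lost without tumor C74-MNT of BURP-16SR, at -0.59 with an adjusted p of 0.0957, and without tumor P5, at -0.53 with 0.104. Against BURP-19NE, whose tumors had 232, 239 and 200 CPM, all 3 BURP-16SR tumors were lower, but the log2 difference of -0.61 ± 0.26 was not called (edgeR adjusted p = 0.11). Without C73-M10 of BURP-16SR it was -0.93 and called (adjusted p = 0.0265).

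Smarca4 (ENSMUSG00000032187.16, chromosome 9 from 21616169 to 21704230, plus strand), the BRG1 ATPase, differed among Ba/Sq lines instead. BURP-12BaSq had 120, 120 and 116 CPM, the tightest group of any line, and the 15 other Ba/Sq tumors had from 147.9 to 321 CPM. All 3 were thus below every other Ba/Sq tumor. The share of all genes that separate in this way was not counted for single Ba/Sq lines. The difference was -0.89 ± 0.23 on the log2 scale (edgeR adjusted p = 0.0240), and 6.94% of all genes were called for this line. Leaving out any 1 tumor of BURP-12BaSq kept the value between -0.90 and -0.87 but ended the call, with adjusted p from 0.109 to 0.145, while leaving out a tumor of another line did not. Crebbp (0.43 ± 0.15, edgeR adjusted p = 0.0887) and Asxl2 (0.51 ± 0.23, edgeR adjusted p = 0.17) were higher in value in BURP-12BaSq and were not called.

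Around Smarca4, 9 of the 10 nearest genes tested had a negative log2 fold change in BURP-12BaSq, with a median of -0.84. The 836 genes tested on chromosome 9 had a median of -0.13. BURP-21BaSq held the other end, with 299, 289 and 242 CPM of Smarca4 and a log2 fold change of 0.56 ± 0.24, not called by edgeR (adjusted p = 0.43). For BURP-21BaSq edgeR called none of the 10 regulators, DESeq2 called Kmt2c as given above, and 2 had an unadjusted p under 0.05, while edgeR called 0.0195% of all genes.

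Smarca2, the alternative ATPase of SWI/SNF, moved more than Smarca4. It fell to 13.2, 11.7 and 15.9 CPM in BURP-19NE, from a Ba/Sq mean of 42.9 CPM, with a log2 fold change of -1.64 ± 0.27 (edgeR adjusted p = 9.11e-05). A BURP-17BaSq tumor with 15.7 CPM overlapped these values. In BURP-16SR Smarca2 was 68.3, 78.8 and 38.8 CPM, a log2 difference of 2.29 from BURP-19NE (edgeR adjusted p = 0.00313). Per kb, Smarca4 exceeded Smarca2 by 10.9 to 17.1 times in BURP-19NE, by 1.90 to 5.33 times in BURP-16SR and by 2.01 to 19.0 times in the Ba/Sq tumors.

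Of the 26 other SWI/SNF subunits, 24 could be tested. In BURP-19NE 5 were higher and 3 lower than in the Ba/Sq lines, near the 33.5% called of all genes. The larger changes were Smarcd3 at 1.60, Bcl7a at -1.17 and Smarcd2 at -1.10 on the log2 scale, beside Smarca2. Smarcd3 is a subunit of muscle forms of the complex. Of the skeletal muscle markers 7 of 7 were higher in BURP-19NE, where 15.5% of all genes were higher. Their summed level there was 3.16 CPM in the lowest tumor, 6.95 in the middle one and 618 in the highest. The Ba/Sq tumors had 0.137 to 40.8 CPM. The part of muscle in the level of Smarcd3 was not tested. The call of Smarcd3 was lost without tumor C80-M1, at 1.55 (adjusted p = 0.0563), or C80-M3, at 1.45 (adjusted p = 0.0779). That of Bcl7a was lost in 10 of 27 alternatives, among them without any 1 BURP-19NE tumor (adjusted p from 0.0988 to 0.180). Pbrm1, the defining subunit of the PBAF form, was lower in BURP-16SR than in BURP-19NE by 1.16 on the log2 scale (-1.16, edgeR adjusted p = 0.00173). In BURP-16SR against the Ba/Sq lines 6 of the 24 were lower and none higher, near the 25.1% called of all genes. Among all genes 11.3% were lower and 13.8% higher. Bcl7a at -1.29 was the only one of the 6 past a fold of 2. That call was lost without any 1 tumor of BURP-16SR, with adjusted p from 0.0784 to 0.143.

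**Figure D3:**
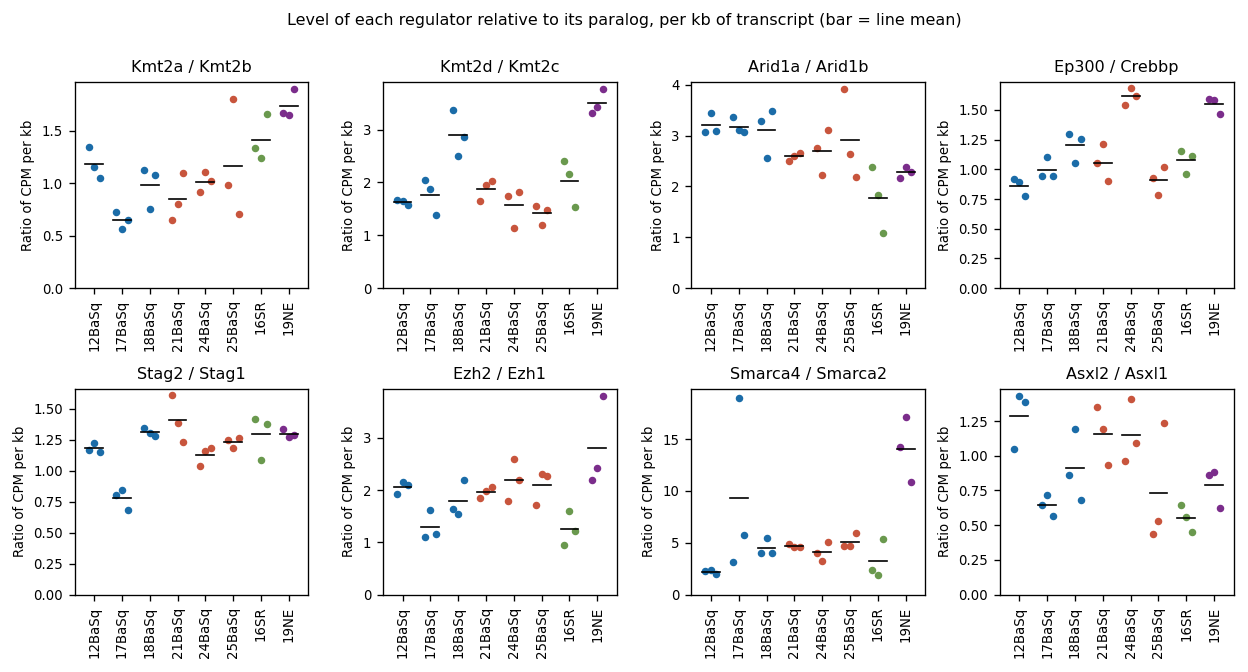
Ratio of each regulator to its paralog, in CPM per kb of the longest transcript (axis from 0), in the 3 tumors of each BURP line, with points for tumors and bars for line means. Smarca4 over Smarca2 is high in BURP-19NE and in 1 tumor of BURP-17BaSq, and Ezh2 over Ezh1 is low in BURP-16SR and in BURP-17BaSq alike.

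The acetyltransferase Ep300 (ENSMUSG00000055024.12, chromosome 15 from 81585351 to 81652077, plus strand) was high in BURP-24BaSq. Its tumors had 317, 265 and 311 CPM, and the 15 other Ba/Sq tumors stayed between 154 and 250 CPM. All 3 BURP-24BaSq tumors were above every other Ba/Sq tumor, a gap for which, as for Smarca4, no share of all genes was counted. Its log2 fold change was 0.58 ± 0.13 (edgeR adjusted p = 0.0219), against a background of 2.6% of genes called for this line. Leaving out any 1 tumor of BURP-24BaSq ended the call, with values from 0.53 to 0.66 and adjusted p from 0.0770 to 0.180. In BURP-16SR Ep300 was 192, 147 and 176 CPM, and BURP-24BaSq exceeded it by 0.74 ± 0.17 on the log2 scale (edgeR adjusted p = 0.0142), where 53.5% of all genes did not overlap between the lines. That call was lost without tumor C81-M1 (adjusted p = 0.0616) or P2 of BURP-24BaSq (adjusted p = 0.0505).

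The neighborhood of Ep300 was high in the same line. Of its 10 nearest genes tested, 8 had a positive log2 fold change in BURP-24BaSq, and St13 at 0.77, Rbx1 at 0.79 and Rangap1 at 0.68 were called. The median of the 593 genes tested on chromosome 15 was 0.31, while that of all protein-coding genes was -0.11. Crebbp (ENSMUSG00000022521.10, chromosome 16 from 4081328 to 4213997, minus strand), the close relative of Ep300, did not follow it. Crebbp was 232, 178 and 218 CPM in BURP-24BaSq, within the Ba/Sq range of 153 to 327 CPM. For the other calls, the neighbors with the regulator's direction were 8 of 10 for Ezh2 and 7 of 10 for Arid1a in BURP-16SR, 6 of 10 for Stag2 in BURP-17BaSq, and 6 of 10 for Kmt2d and 5 of 10 for Kmt2a in BURP-18BaSq. Per kb, Ep300 over Crebbp was 1.55 to 1.69 in BURP-24BaSq and 1.47 to 1.59 in BURP-19NE, and at most 1.29 in the other lines.

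Crebbp was highest in BURP-12BaSq, at 255, 284 and 327 CPM, and the line means of BURP-16SR, BURP-19NE and BURP-18BaSq all lay between 178 and 181 CPM. The main edgeR fits called it in none of the 11 comparisons between groups, although it passed the test over the 6 Ba/Sq lines (edgeR adjusted p = 0.0283). DESeq2 called Crebbp in BURP-12BaSq (0.42, adjusted p = 0.0354). The fit of all 24 tumors called it lower in BURP-19NE (-0.33, adjusted p = 0.0272) and in BURP-16SR against the Ba/Sq lines. Of 7 other histone acetyltransferases, 1 was higher and none lower in BURP-19NE, and 1 was higher and 1 lower in BURP-16SR. Against the Ba/Sq lines 33.5% of all genes were called in BURP-19NE and 25.1% in BURP-16SR.

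**Figure D4:**
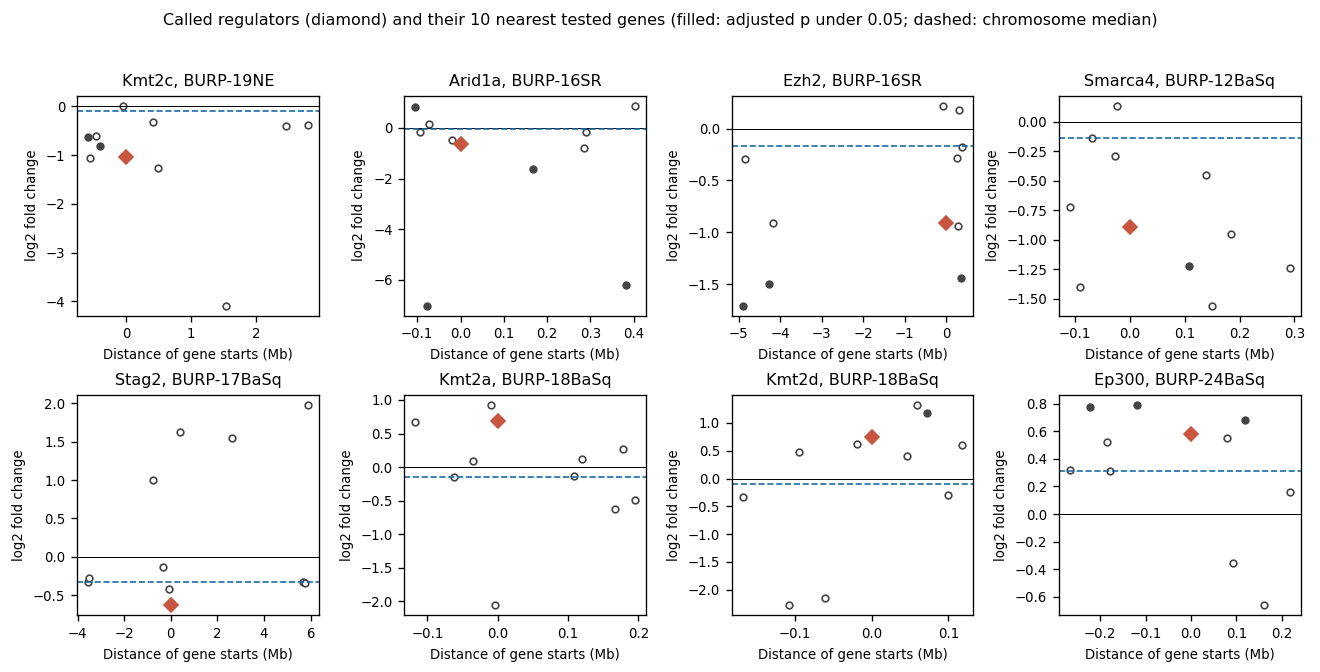
The log2 fold change of each regulator called in a line against the Ba/Sq lines (diamond) and of the 5 nearest protein-coding genes tested on each side (circles, filled where adjusted p is under 0.05), by the distance between gene starts in Mb. The dashed line is the median of the genes tested on that chromosome, which is 0.31 for Ep300 in BURP-24BaSq and -0.33 for Stag2 in BURP-17BaSq.

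Stag2 (ENSMUSG00000025862.14, X chromosome from 42149317 to 42277185, plus strand) was lowest in BURP-17BaSq, at 68.5, 80.3 and 64.2 CPM. The 15 other Ba/Sq tumors had from 82.5 to 144 CPM, so that the groups did not overlap. The gap to BURP-21BaSq, with 99.6, 85.5 and 82.5 CPM, was small. How many of all genes separate in this way was not counted for this line. Stag2 had a log2 fold change of -0.63 ± 0.16 (edgeR adjusted p = 0.0482), with 1.64% of all genes called. The call lay at the threshold and was lost in 17 of 23 alternatives, among them each fit without 1 tumor of BURP-17BaSq (-0.73 to -0.56, adjusted p from 0.0802 to 0.285), while the direction held in all. Stag2 was the only regulator with an unadjusted p under 0.05 in this line. The 482 genes tested on the X chromosome had a median log2 fold change of -0.33 in BURP-17BaSq, beside -0.02 over all protein-coding genes. Per kb, Stag2 over Stag1, the other mitotic form, was 0.681 to 0.841 in BURP-17BaSq and at least 1.04 in every other line.

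Stag2 was 128, 122 and 140 CPM in BURP-19NE and 118, 102.01 and 161 CPM in BURP-16SR. Their log2 fold changes over the Ba/Sq lines, 0.35 ± 0.19 (edgeR adjusted p = 0.15) and 0.36 ± 0.19 (edgeR adjusted p = 0.17), were not called. Both were called when all 24 tumors shared 1 fit, at 0.36 (adjusted p = 0.0118) and 0.32 (adjusted p = 0.0241). Without tumor P5 of BURP-16SR, the one with 161 CPM, the value there was 0.08 (adjusted p = 0.837).

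The third paralog, Stag3, which is known from the cohesin of meiosis, was expressed in 1 line. BURP-24BaSq had 70.1, 123 and 81.2 CPM of Stag3, and the other 21 tumors had from 0 to 1.96 CPM. Called by edgeR against the other Ba/Sq lines (adjusted p = 6.47e-07), it had a log2 fold change of 7.41. Rec8, the meiotic partner of Stag3, was 1.58, 0.848 and 1.65 CPM in BURP-24BaSq, below the 4.27 and 4.03 CPM of tumors of BURP-25BaSq. Against BURP-16SR, 7 of 16 cohesin genes tested were higher in BURP-24BaSq and 1 lower, where 17.6% of all genes were higher and 20.4% lower. The larger changes were Stag3 at 7.91, Rec8 at 3.97, the acetyltransferase Esco2 at 1.48 and the loader Nipbl at 1.04. The call of Esco2 was lost in 4 of 12 alternatives. Rec8 had 1 count in each BURP-16SR tumor, so its fold change depends on the prior count.

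In BURP-18BaSq the cohesin ring subunit Smc3 was lower than in the other Ba/Sq lines, at 24.9, 34.9 and 36.8 CPM against a mean of 68.9 CPM, with a log2 fold change of -1.09 (edgeR adjusted p = 0.00138). Sgo1, the protector of centromeric cohesin, was also lower at -1.02 (edgeR adjusted p = 0.0154), a call lost without tumor C148-M3 (adjusted p = 0.117) or C149-M3 (adjusted p = 0.0869). These were the 2 of 16 cohesin genes called in that line, a share below the 15.9% of all genes. In BURP-16SR 1 of 16 cohesin genes was higher and 1 lower than in the Ba/Sq lines, with a median of -0.36. Of all genes 25.1% were called. The higher gene was Pds5b, a regulator of cohesin release, at 1.03, and at 0.68 without tumor P5 (adjusted p = 0.0388).

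Ezh2 (ENSMUSG00000029687.16, chromosome 6 from 47530139 to 47595341, minus strand), the H3K27 methyltransferase whose transcription is known to follow cell division through E2F factors, was held within narrow limits in the Ba/Sq lines, from 34.0 to 59.4 CPM with a median of 49.0. In BURP-16SR it was 20.3, 31.0 and 23.6 CPM, below all 18 Ba/Sq tumors, as 11.4% of all genes were without overlap in one direction or the other. The mean was 25.01 ± 5.48 CPM (SD, n = 3) against 49.6 ± 5.66 CPM (SD, n = 18). Ezh2 had a log2 fold change of -0.91 ± 0.15 (edgeR adjusted p = 0.000121), and the call held in each alternative, between -1.11 and -0.80.

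Ezh2 was 46.6, 52.9 and 70.8 CPM in BURP-19NE, above all BURP-16SR tumors, with a log2 difference of -1.09 ± 0.24 for BURP-16SR minus BURP-19NE (edgeR adjusted p = 0.0144). BURP-24BaSq, at 44.4, 49.9 and 45.9 CPM, exceeded BURP-16SR by 0.84 ± 0.20 (edgeR adjusted p = 0.0149), a call that ended without C73-M10 of BURP-16SR, at 0.73 with an adjusted p of 0.0501, or without C81-M30 of BURP-24BaSq, at 0.81 with 0.0513. Per kb, Ezh2 over Ezh1 was 0.953 to 1.61 in BURP-16SR, 1.09 to 1.63 in BURP-17BaSq, up to 2.58 in the other Ba/Sq tumors and 2.18 to 3.79 in BURP-19NE.

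Other markers moved with Ezh2 in BURP-16SR. Of 20 genes of S phase and mitosis, 8 were lower and none higher than in the Ba/Sq lines. Of all genes 11.3% were lower and 13.8% higher. The 20 had a median log2 fold change of -0.71, and their summed level was 725 to 1384 CPM against 1110 to 3126 CPM. In BURP-19NE 6 of the 20 were lower and none higher (median -0.45, 925 to 1781 CPM in sum), where 17.9% of all genes were lower. Ezh2 there was 46.6 to 70.8 CPM, as given above. Fibroblast markers were higher in BURP-16SR in 5 of 10 cases and endothelial markers in 3 of 6, against 13.8% of all genes. The summed level of the fibroblast markers was 630 to 20770 CPM against 248 to 10310 CPM. The part of cell division and of stromal cells in the level of Ezh2 was not tested.

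The promoter of Ezh2 is shown because, of the 9 regulators with a RefSeq promoter entry (GRCm38.p6, 250 bases before to 50 after the start), it held an E2F-type word, the motif read by the factors that drive genes of cell division. TTTCCCGC, TTTCGCGC, TTTGCCGC and TTTGGCGC were sought on both strands, and a promoter with any of them was counted once, whether or not matches overlapped. They lay in 2.26% of all 32851 promoters, in 5 of the 18 promoters of the 20 cell division genes that had an entry and in 2 of the 10 promoters of the regulators. The other was 1 of the 2 promoters of Arid1a. The stretch below covers chr6:47595011-47595150 on the minus strand, read 5′ to 3′, from 120 bases before to 20 bases after the start, with the word in capitals.
Ezh2 promoter: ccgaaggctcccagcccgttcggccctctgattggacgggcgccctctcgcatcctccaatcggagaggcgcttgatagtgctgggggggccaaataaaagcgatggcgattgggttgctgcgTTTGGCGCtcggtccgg
The word begins at base 4 counted from the start of transcription as 1. A match of letters is a description of the sequence, and binding was not measured.

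The 11 other PRC2 genes did not move with Ezh2 as a group. In BURP-16SR 2 were higher and 1 lower, with a median of -0.18, where 25.1% of all genes were called. Phf1 (1.54) and Phf19 (1.83), which encode Polycomb-like proteins that bring PRC2 to DNA, were higher, and Epop, a PRC2 accessory protein, was lower at -2.47. Phf1, Phf19 (1.94) and Epop (-2.89) were also the PRC2 genes called in BURP-19NE, in the same directions, where 33.5% of all genes were called. The call of Phf19 was lost in BURP-19NE without tumor C80-M30, at 1.16 with an adjusted p of 0.260. In BURP-16SR it was lost without C74-MNT (adjusted p = 0.141) or P5 (adjusted p = 0.0856), and that of Epop without C73-M10 (adjusted p = 0.0798). Epop followed the doubt on C102-M1 as well, with 33.5 CPM there and 2.45 and 0.895 CPM in the other tumors of BURP-25BaSq.

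Asxl2 (ENSMUSG00000037486.18, chromosome 12 from 3426857 to 3506852, plus strand) was lowest in BURP-16SR, at 96.2, 95.0 and 81.6 CPM, and highest in BURP-12BaSq (167, 205 and 200 CPM) and BURP-21BaSq (209, 178 and 160 CPM). The Ba/Sq tumors together ranged from 85.0 to 209 CPM with a median of 138, and the log2 fold change of BURP-16SR over them, -0.58 ± 0.25, was not called (edgeR adjusted p = 0.10). It was called in the fit of all 24 tumors, at -0.62 with an adjusted p of 0.0139. BURP-19NE had 153, 157 and 115 CPM, and the log2 difference of BURP-16SR from it, -0.54 ± 0.17, was just past the threshold (edgeR adjusted p = 0.0486). Of the 6 tumors in that comparison, leaving out 5 ended the call, with adjusted p from 0.0604 to 0.142.

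Its relatives differed from Asxl2 in pattern. Asxl1, whose product joins the same enzyme Bap1, was lowest in BURP-24BaSq at 72.0, 62.0 and 63.0 CPM, below the other Ba/Sq tumors (log2 fold change -0.50, edgeR adjusted p = 0.0395), a call lost in 10 of 23 alternatives. Asxl3, of which no tumor of another line had more than 0.619 CPM, was 5.45, 8.21 and 4.71 CPM in BURP-24BaSq and was called (edgeR adjusted p = 0.000111). Per kb, Asxl2 over Asxl1 ranged from 0.435 to 1.43, and both ends lay in Ba/Sq tumors.

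BURP-25BaSq was the line in which no regulator was called and none had an unadjusted p under 0.05, against 0.287% of all genes called. With C102-M1 counted in BURP-21BaSq, again no regulator was called in either line. Kmt2d, at 514, 369 and 345 CPM, had the largest difference in BURP-25BaSq (-0.45 ± 0.27, edgeR adjusted p = 0.63).

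Regulators also varied together between tumors of 1 line. After the mean of its line was subtracted from each log2 level, Pearson's r between Kmt2d and Arid1a was 0.87 over the 24 tumors. Kmt2a, Kmt2c, Kmt2d, Arid1a, Ep300 and Crebbp, grouped after these values were seen, had r from 0.33 to 0.87 over their 15 pairs with a median of 0.62. The 30 other pairs had r from -0.37 to 0.59 with a median of 0.02. As the 6 were grouped after these values were seen, the gap between the sets of pairs carries no weight of its own. Without C102-M1 the range of the 15 pairs was 0.22 to 0.86, and without C102-M30 it was 0.49 to 0.87. These values share library, depth and normalization, and carry no test. The mean of the 6 was lowest in tumor P4 of BURP-18BaSq (-0.31) and highest in C73-M10 of BURP-16SR (0.27) on the log2 scale relative to the line.

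All 6 have transcripts above 8 kb, so the level of long transcripts in general was placed beside them. Per tumor, the median of 3396 protein-coding genes with transcripts over 5 kb minus that of 11869 shorter genes had r = 0.04 with the mean of the 6. Between subtypes, in BURP-19NE against the Ba/Sq lines the long genes had a median log2 fold change of 0.02 and the shorter genes -0.18, and in BURP-16SR 0.00 and -0.01.

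**Figure D5:**
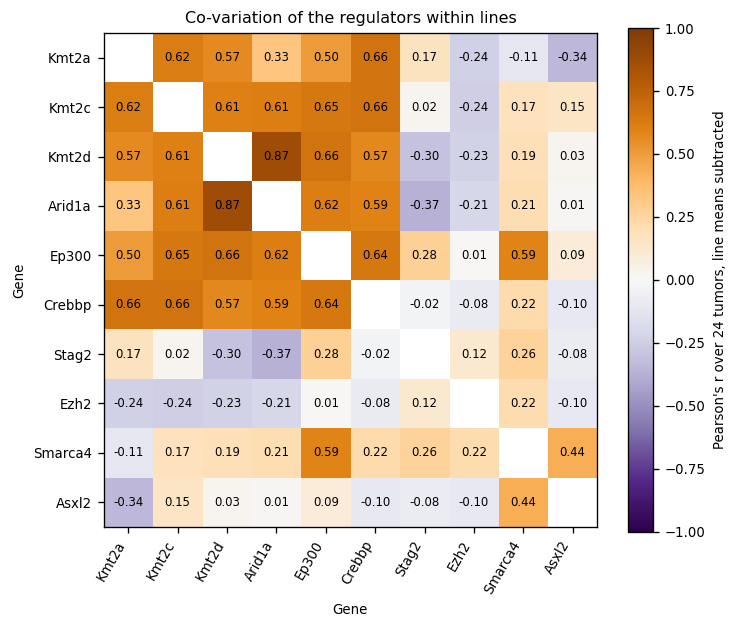
Pearson's r between the log2 levels of each pair of regulators over 24 tumors, after the line mean was subtracted, in color and as printed values. The 6 genes Kmt2a, Kmt2c, Kmt2d, Arid1a, Ep300 and Crebbp have r of 0.33 or more with each other, and Kmt2d with Arid1a is highest at 0.87.

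The genes most like each regulator, by Pearson's r of log2 CPM over the 24 tumors, often lay on its own chromosome. For Asxl2 they were Ankmy2 (r = 0.86), Timm9 (0.85) and Ppp4r3a (0.82), all on chromosome 12. Of its 50 most similar genes 25 were on chromosome 12, which holds 3.43% of the protein-coding genes tested, and after subtraction of line means 33 of 50 were. Without C102-M1 these counts were 22 and 18 of 50. For Ezh2 the most similar were Tamm41 (0.90), Nt5c3b (0.88) and Dusp11 (0.88), and 23 of 50 were on its chromosome 6 (5.01% of genes tested), but 7 of 50 after subtraction of line means, and then 4 of 50 without C102-M1 and 3 of 50 without C102-M30. For Stag2 they were Azi2 (0.90), Fundc1 (0.87) and Stt3b (0.85), with 18 of 50 on the X chromosome (3.29%) and 14 of 50 within lines.

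For the other regulators between 1 and 9 of the 50 most similar genes lay on the same chromosome. Ep300 had 8 of 50, where 3.99% of protein-coding genes tested are on its chromosome. Arid1a had 9 (6.07%), Kmt2c 8 (6.23%), Kmt2d 6 (3.99%) and Crebbp 5 (3.04%). Kmt2a had 4 and Smarca4 had 1, where 5.61% are on chromosome 9. After subtraction of line means these regulators had from 4 to 7 of 50. The most similar gene was Fosl2, an AP-1 factor that is also on chromosome 5, for Kmt2c (r = 0.91), Mfhas1 for Kmt2a (0.84), Setd1b, another H3K4 methyltransferase, for Kmt2d (0.82), and Zfp362 for Arid1a (0.82). It was Zbed4 for Ep300 (0.82), followed by Arid2, a SWI/SNF subunit, at 0.81, both on chromosome 15. It was D10Jhu81e for Crebbp (0.87) and Ubap2 for Smarca4 (0.84).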

How the data were processed

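RNA-seq of 24 tumors from 8 BURP lines was analysed. Per the labels and methods, ribosomal RNA was depleted and stranded paired-end libraries were sequenced. The authors used CASAVA 1.8.2, STAR 2.6.0a (GRCm38, GENCODE M16) and RSEM 1.3.1, and deposited estimated counts per gene, not normalized. RSEM divides reads that fit several genes, so 12.5% of values are not whole, and counts were rounded here. Not whole were the values of Kmt2a and Kmt2d in 23 tumors, of Kmt2c in 24, of Asxl2 in 10 and of Ezh2 in 5. Symbols and positions came from a GRCm38 annotation, with 99.6% of identifiers matched.

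Analyses used R 4.3.3 with edgeR 4.0.16 (TMM, filterByExpr, glmQLFit and glmQLFTest), tested on simulated data, DESeq2 1.42.0, limma 3.58.1 and Python 3.11.15. Called means a Benjamini-Hochberg adjusted p under 0.05 over all genes tested. Standard errors are the absolute log2 fold change divided by the square root of F. Tumors were grouped by label, and the library labelled C102-M1 was kept as labelled. Similarity used log2 CPM with a prior count of 2. A level of 3 counts corresponds to 0.106 to 1.34 CPM.

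Regulators and lists were chosen with earlier results of these data known. Named were all 10 regulators, at most 4 members of each list called with a fold above 2 in a comparison, fixed paralogs, and the 3 protein-coding genes most similar to each regulator. Neighbors were named after their values were seen. Besides the regulators, 15 lists of partners, paralogs and cell type markers were counted. Alternatives were DESeq2, its size factors, no filter, a minimum of 10 counts in all tumors, a joint fit of the 24, each tumor or line left out, sums per line and limma-voom. Without ribosomal RNA genes and Gm26917, and C102-M1 in BURP-21BaSq, were added after seeing the data.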

Additional observations from a re-analysis of the deposited data

Results flagged for a closer look

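In the 9 male and the 9 female Ba/Sq tumors, the highest and lowest level of each regulator were compared with the rest by Dixon's criterion. Of the 20 groups in all, chance flags about 1 in 20 where the tumors are independent. Here each group holds several grafts of each line, so that rate need not apply. Kmt2a in tumor C148-M3 of BURP-18BaSq stood apart as the highest male tumor at 494 CPM. Ezh2 in tumor C152-M1 of BURP-17BaSq was apart as the lowest male tumor at 34.0 CPM. Ezh2 in tumor P4.2 of BURP-21BaSq was apart as the highest female tumor at 56.6 CPM, in a group that ranged only from 44.4 CPM.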

How the results depend on the processing

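No paired analysis was possible because replicate numbers only name tumors and the labels pair none across lines. Over 110 log2 fold changes of the regulators and 2490 alternatives, 37 changed sign in at least 1 alternative, none of them called in the main analysis or after the change, and none larger than 0.23 in the main analysis. The 14 calls kept their direction throughout. With all 24 tumors in 1 fit, regulators called rose to 4 in BURP-19NE and 5 in BURP-16SR against the Ba/Sq lines, and to 5 between BURP-16SR and BURP-19NE. The share of all genes called in that fit is not given here. Against the Ba/Sq lines it leaves the spread among those lines out of its error, which the main fits keep. DESeq2 called 2 for the sexes, 2 for BURP-12BaSq and 1 for BURP-21BaSq, and 2 were called for the sexes without line BURP-17BaSq. No filter left 0 for BURP-17BaSq and 1 for BURP-18BaSq, and without ribosomal RNA genes 0 remained for BURP-17BaSq. Leaving out 1 tumor gave 1 to 2 calls for BURP-19NE and for BURP-16SR against the Ba/Sq lines, 2 to 3 between BURP-16SR and BURP-19NE, 1 to 3 for BURP-24BaSq against BURP-16SR, 0 to 1 for the sexes, 0 to 1 for BURP-12BaSq, BURP-17BaSq and BURP-24BaSq, and 0 to 2 for BURP-18BaSq. Kmt2a in BURP-24BaSq against BURP-16SR (-0.54, edgeR adjusted p = 0.0497) was lost in 10 of 12 alternatives, with adjusted p up to 0.167. The causes were not tested.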

Other observations

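Against the Ba/Sq lines, 33.5% of all genes were called in BURP-19NE and 25.1% in BURP-16SR. Of the lists not described so far, the PR-DUB partners and paralogs of Asxl2 held 1 higher and 1 lower gene of 6 in both. Of 8 macrophage markers and 4 demethylases of the sex chromosomes, edgeR called none in either line and none had an unadjusted p under 0.05. Of 10 lymphocyte markers 4 were higher in BURP-16SR, against 13.8% of all genes. Their summed level was 1.47 to 247 CPM there and 1.26 to 28.4 CPM in the Ba/Sq tumors. In single Ba/Sq lines, Smarcc1, a core SWI/SNF subunit, was lower in BURP-17BaSq (log2 fold change -1.10, edgeR adjusted p = 0.0311), and the call was lost without any 1 tumor of that line. Bcl7b, another subunit, was lower in BURP-12BaSq (-1.35, edgeR adjusted p = 0.00642), a call lost without tumor C41-M3 or C47-M30. Smarcd3 (2.05) and Smarcd1 (1.06), which encode alternative subunits of the same position, were both higher in BURP-18BaSq, with edgeR adjusted p of 2.17e-06 and 7.08e-05.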
